A study of Mus musculus with 33 samples.

Results

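The clock repressors examined here are the Period genes *Per1*, *Per2* and *Per3*, the cryptochromes *Cry1* and *Cry2*, the nuclear receptors REV-ERBα and REV-ERBβ (*Nr1d1* and *Nr1d2*), and the casein kinase 1 genes *Csnk1d* and *Csnk1e*. They were chosen by gene symbol, and all 9 of them are among the 21565 genes of the table, which holds frontal cortex mRNA of 33 mice in 7 groups. All mice were adult males (8 to 19 weeks) on a C57BL/6J background, moved to constant darkness 36 hr before the day of the experiment, and tissue was taken at ZT 6, that is 6 hr into the usual light phase. WT mice slept freely (control sleep, CS; n = 6), were kept awake on a treadmill for 6 hr (SD; n = 7), or were kept awake for 4 hr and then slept for 2 hr (recovery sleep, RS; n = 7). *Mef2c* f/f mice carry loxP sites around exon 11 of both copies of *Mef2c*, which encodes part of the DNA-binding domain of the activity-dependent transcription factor MEF2C, and carry no Cre (CS, n = 4; SD, n = 3). Mef2c-cKO mice carry the same loxP sites and the T29-1 Camk2a-Cre transgene, which drives recombination in excitatory neurons of the forebrain (CS, n = 3; SD, n = 3). Some Cre offspring of this line also had a recombined allele in tail DNA, so recombination was not limited to those neurons in every mouse, and no group carried Cre without loxP.

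In the mammalian clock, the activators BMAL1 (*Arntl*) and CLOCK, or NPAS2 in the forebrain, bind E-boxes and turn on *Per*, *Cry* and *Nr1d* genes. PER and CRY proteins then return to the nucleus and block those activators, while the REV-ERB receptors repress *Arntl* by competing with ROR activators. Casein kinase 1 δ and ε phosphorylate PER proteins and set how long they last. *Per1* and *Per2* can also be induced directly, *Per1* through CREB and both through the glucocorticoid receptor, and their cortical mRNA is known to follow time awake as well as time of day.

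Promoter sequences are shown for the members whose mRNA differed in a comparison below and for which the RefSeq promoter set holds an entry (GRCm38.p6, 250 bases before to 50 bases after a start site). Entries were found for 7 of the 9 genes; *Per2* and *Csnk1d* were not among them. Capitals mark the letters searched for on both strands, which were the E-box CACGTG, the E′-box CACGTT, the half-site TGACGT of a CRE (the element bound by CREB), the half-site AGGTCA shared by ROR, REV-ERB and other nuclear receptors, and the half-site AGAACA of the glucocorticoid receptor. These motifs were found in 7.15%, 4.68%, 7.51%, 16.3% and 18.97% of all 32851 promoters, respectively. The first 2 sequences belong to *Per1* (chr11:69098699-69098998 and chr11:69099902-69100201, plus strand), the third to *Nr1d1* (chr11:98775328-98775627, minus strand) and the fourth to *Nr1d2* (chr14:18239057-18239356, minus strand), each written 5′ to 3′ along the gene.
Per1 upstream start: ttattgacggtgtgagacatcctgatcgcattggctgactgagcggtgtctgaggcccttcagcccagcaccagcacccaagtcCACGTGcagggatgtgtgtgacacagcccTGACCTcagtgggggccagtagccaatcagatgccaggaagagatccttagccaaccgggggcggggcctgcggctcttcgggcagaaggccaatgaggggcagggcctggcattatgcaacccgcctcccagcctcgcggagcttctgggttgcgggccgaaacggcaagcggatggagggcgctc
Per1 downstream start: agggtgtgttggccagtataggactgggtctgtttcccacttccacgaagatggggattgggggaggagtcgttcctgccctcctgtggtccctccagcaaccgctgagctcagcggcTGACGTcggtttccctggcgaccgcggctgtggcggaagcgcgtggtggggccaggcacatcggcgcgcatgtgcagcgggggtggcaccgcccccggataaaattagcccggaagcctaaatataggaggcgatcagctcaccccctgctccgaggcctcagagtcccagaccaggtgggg
Nr1d1: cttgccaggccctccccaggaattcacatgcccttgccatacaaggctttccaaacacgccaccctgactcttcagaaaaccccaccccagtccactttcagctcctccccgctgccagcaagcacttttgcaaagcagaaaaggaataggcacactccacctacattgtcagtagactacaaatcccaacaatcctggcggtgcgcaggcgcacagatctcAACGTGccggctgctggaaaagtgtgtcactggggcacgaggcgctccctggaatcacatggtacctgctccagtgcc
Nr1d2: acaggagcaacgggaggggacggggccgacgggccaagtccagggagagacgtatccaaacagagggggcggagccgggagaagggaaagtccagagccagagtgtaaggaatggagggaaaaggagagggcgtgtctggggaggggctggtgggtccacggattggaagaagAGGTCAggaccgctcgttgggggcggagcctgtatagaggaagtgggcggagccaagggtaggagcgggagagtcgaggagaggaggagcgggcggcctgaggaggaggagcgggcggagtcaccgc

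The upstream *Per1* promoter held an E-box that began 166 bases before the start site and a nuclear receptor half-site on the other strand. The downstream *Per1* promoter held a CRE half-site 132 bases before its start. An E′-box lay 28 bases before the *Nr1d1* start, and the *Nr1d2* promoter held 1 nuclear receptor half-site and no E-box. Among promoters not printed, that of *Cry1* held an E-box and an E′-box and that of *Cry2* an E′-box, while none of the 5 motifs was found in the *Per3* entry. The glucocorticoid receptor half-site was found in *Csnk1e* only, among the 7 genes with an entry. These matches describe the letters in a window and are not evidence of binding.

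Levels are given as rescaled CPM, the authors' CPM (reads scaled to the library total) divided by a factor per library that brings the middle gene of all libraries to the same level. Libraries held 18935045 to 249046089 reads. Excitatory neuron markers summed to between 1348 and 2540 rescaled CPM in every library, and none of the 6 was listed at 0. *Mef2c* itself was at 957 to 1727 rescaled CPM in the 3 Mef2c-cKO CS libraries and at 1080 to 1207 in the 4 *Mef2c* f/f CS libraries. The count covers the whole gene, so it does not check the deletion of exon 11. WT CS replicate 2 stood apart, with the lowest factor of all libraries (0.716, other libraries 0.820 to 1.14), and Mef2c-cKO CS replicate 8 had the highest sums of astrocyte markers (2767 rescaled CPM) and microglia markers (436). Results for called members, and the other values that moved most, are given with and without them. In WT mice the factors also differed by sleep group, at 0.716 to 0.911 in CS, 0.978 to 1.08 in SD and 0.820 to 1.04 in RS. Factors of CS and SD did not overlap, and leaving out WT CS replicate 2 does not remove that difference.

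*Per3* was listed at 0 in all 33 libraries, 1 of 1969 genes of the table at 0 throughout. A count of 0 allows up to 3 reads, or 0.0120 to 0.158 CPM depending on the library. *Per3* (chromosome 4, 151003652 to 151044665, minus strand, GRCm38) lies within the span of *Camta1* on the same strand, although their exons share 0 bases in the GENCODE M21 annotation. The annotation release used for counting is not given in the sources used here, so a listing at 0 is not read as absence of the mRNA, and *Per3* enters no comparison. The results below concern the other 8 genes, which passed the filter on low values in every comparison.

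Per kb of transcript, the REV-ERBβ gene *Nr1d2* had the highest mean level of the 8 genes in WT CS, at 29.7 ± 3.22 rescaled CPM per kb (SD, n = 6). Its 6 libraries lay above all values of the next gene, *Csnk1e* (21.7 ± 1.88). *Csnk1d* (18.4 ± 2.97), *Nr1d1* (18.3 ± 3.62) and *Cry2* (17.9 ± 2.75) followed with ranges that overlapped one another and that of *Csnk1e*. A gap then separated *Cry2* from *Cry1* (6.14 ± 0.958), *Per1* (5.58 ± 1.60) and *Per2* (4.07 ± 0.614), whose neighbouring ranges overlapped. The 2 Period genes and *Cry1* were the 3 lowest of the 8 in each of the 7 groups. *Nr1d2* was the highest in 6 groups, the exception being Mef2c-cKO SD, where *Csnk1d* (26.9 ± 0.429, n = 3) was above *Nr1d2* (24.8 ± 3.03) with overlapping ranges.

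**Figure D1:**
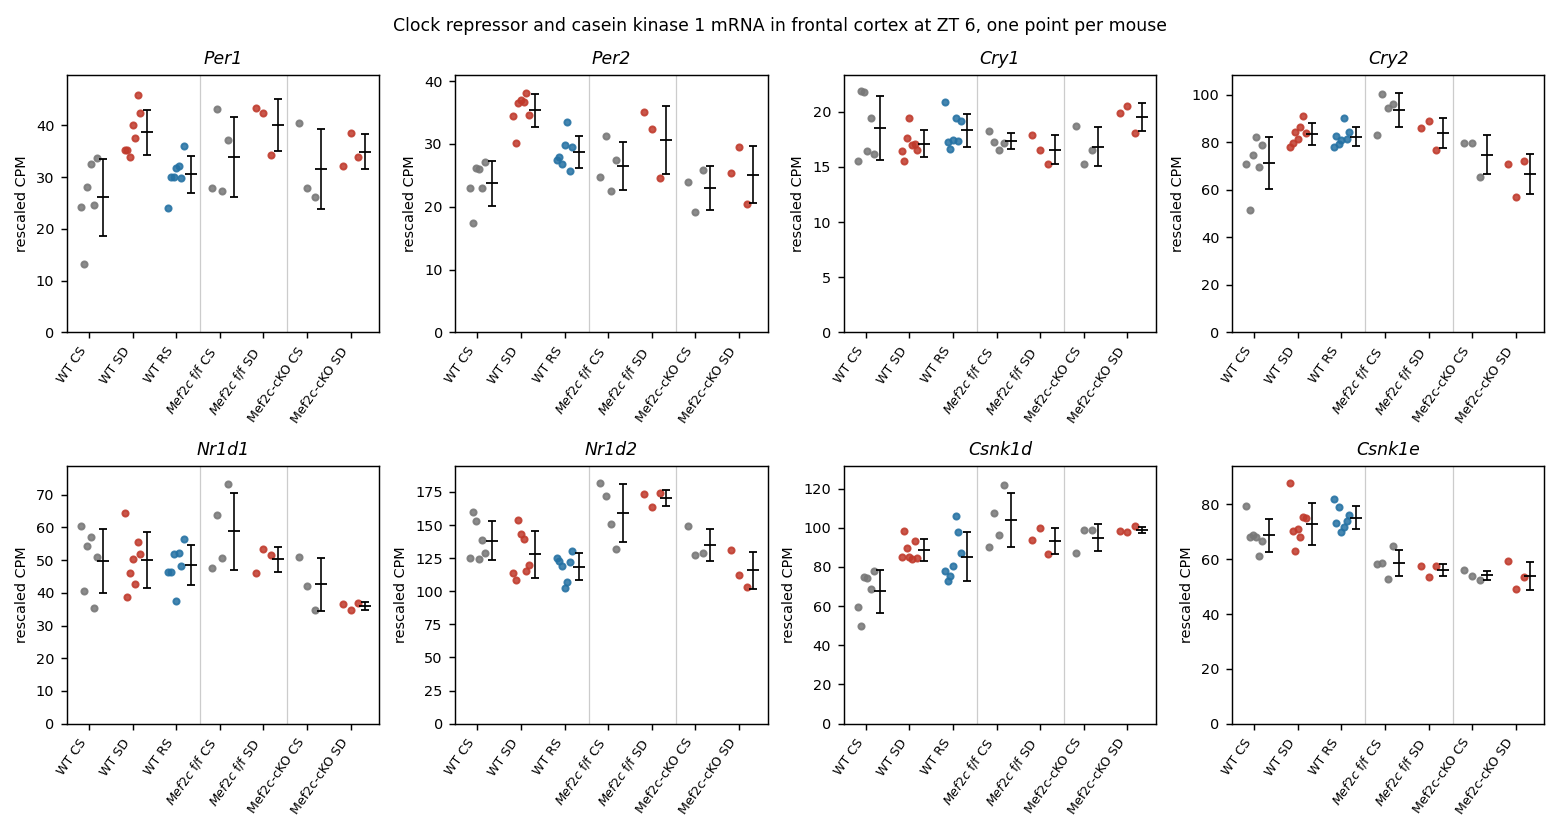
Rescaled CPM (vertical axes, from 0) of the 8 genes with reads in each of the 33 libraries, by group (CS grey, SD red, RS blue), with the mean ± SD beside each group. *Per1*, *Per2* and *Csnk1d* in WT SD lie above every WT CS library, and *Nr1d1* and *Nr1d2* in Mef2c-cKO SD lie below every *Mef2c* f/f SD library. Groups did not overlap for 15.1% and 40.3% of all genes tested in these comparisons, respectively.

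In WT mice, *Per1*, *Per2* and *Csnk1d* mRNA was called higher after 6 hr of sleep deprivation, while the cryptochromes, REV-ERB genes and *Csnk1e* did not pass the test. With transcript GC content and length corrected, and likewise with a block for replicate number, *Per2* was the only member called. A gene counted as called in limma where its p, adjusted over all genes tested by the Benjamini-Hochberg method, was 0.05 or less and its log2 difference was at least 0.3 in size. By this rule 3 of the 8 genes were called, all of them higher in SD. The same rule called 45.1% of the 12913 genes tested, so the share among the 8 is near the background. CS and SD libraries did not overlap for 15.1% of the genes tested. Their median log2 difference was 0.16, against 0.04 over all genes tested. In such bulk tissue, fewer cells of a type and less RNA per cell cannot be told apart.

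*Per1* (chromosome 11, 69095217 to 69109960, plus strand) encodes a PER repressor and is the Period gene best known for rapid induction. Its WT CS libraries ran from 13.1 through a median of 26.3 to 33.8 rescaled CPM, and its WT SD libraries from 34.0 through 37.6 to 45.8. The groups did not overlap, although the lowest SD and highest CS libraries were close together. The log2 difference was 0.61 (SE 0.17, 95% confidence interval 0.24 to 0.98, adjusted p = 0.0123), a fold of 1.53. The lowest CS library was replicate 2, and without it the log2 difference was 0.43 (adjusted p = 0.00678).

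*Per2* (chromosome 1, 91415982 to 91459324, minus strand), which encodes the PER protein at the centre of casein kinase 1 control, showed the smallest adjusted p of the 8 genes. It was at 17.4 to 27.1 rescaled CPM in WT CS (median 24.5) and at 30.1 to 38.1 in WT SD (median 36.6), with no overlap. The log2 difference was 0.57 (SE 0.10, 95% confidence interval 0.36 to 0.79, adjusted p = 0.00134), and 0.49 without WT CS replicate 2 (adjusted p = 0.000594). The ratio of *Per1* to *Per2* CPM within a library, which no scaling can change, was 1.08 ± 0.182 in WT CS, 1.09 ± 0.111 in SD and 1.07 ± 0.118 in RS.

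*Csnk1d* (chromosome 11, 120961749 to 120991330, minus strand) encodes casein kinase 1 δ. It was at 49.7 to 78.1 rescaled CPM in WT CS (median 71.7) and at 84.1 to 98.6 in WT SD (median 85.3), again with no overlap. The log2 difference was 0.40 (SE 0.10, adjusted p = 0.00686), and 0.32 without WT CS replicate 2 (adjusted p = 0.00622). Its paralog *Csnk1e* (chromosome 15, 79417856 to 79455566, minus strand), the kinase ε gene, differed by 0.08 (95% confidence interval -0.10 to 0.26), with overlapping groups. The ratio of *Csnk1d* to *Csnk1e* CPM was 0.992 ± 0.198 in WT CS and 1.23 ± 0.155 in WT SD.

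Log2 differences from WT CS to SD went with transcript GC content, and over 12459 genes, which all come from the same 13 libraries, Spearman's rho was 0.72. The longest *Per1* transcript has 59.4% GC, above 94.5% of the annotated genes, against 54.3% for *Per2*, 54.1% for *Csnk1d* and 41.8% for *Nr1d2* (above 16.6%). Once each library had been corrected for transcript GC content and length, *Per2* was still called (0.36, adjusted p = 0.00134), whereas *Per1* (0.11, adjusted p = 0.330) and *Csnk1d* (0.12, adjusted p = 0.175) were not. With the same correction *Nr1d1* was at -0.42 (adjusted p = 0.0519) and *Csnk1e* at -0.32 (adjusted p = 0.0613), neither of them called.

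*Cry2* (chromosome 2, 92403646 to 92434043, minus strand), the cryptochrome with more mRNA in this tissue, was not called. It was at 51.3 to 82.5 rescaled CPM in WT CS and at 77.9 to 91.1 in WT SD, a log2 difference of 0.24 (95% confidence interval 0.03 to 0.45, adjusted p = 0.0505), and of 0.15 without WT CS replicate 2 (adjusted p = 0.0770). *Cry1* (chromosome 10, 85131700 to 85185064, minus strand), whose protein is the stronger repressor of CLOCK and BMAL1, was at 15.5 to 21.9 in CS and 15.6 to 19.4 in SD, with a log2 difference of -0.10 (95% confidence interval -0.32 to 0.11). *Cry2* libraries in SD thus lay within the upper range of CS or above it, and *Cry1* libraries within the range of CS. With CPM as deposited, where the median log2 difference of all genes was 0.30 rather than 0.04, 5 members were called (*Per1* 0.88, *Per2* 0.84, *Csnk1d* 0.68, *Cry2* 0.51 and *Csnk1e* 0.36), and *Cry1* and *Nr1d2* turned to 0.16, neither of them called. Over all genes that scaling called 6106 higher and 801 lower, against 3183 and 2643 with rescaled CPM. The ratio of *Cry2* to *Cry1* CPM was 3.96 ± 1.03 in WT CS and 4.90 ± 0.377 in WT SD.

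*Nr1d1* (chromosome 11, 98767932 to 98775333, minus strand) was at 35.3 to 60.3 rescaled CPM in WT CS and at 38.7 to 64.5 in WT SD, with a log2 difference of 0.01 (95% confidence interval -0.28 to 0.31). *Nr1d2* (chromosome 14, 18204054 to 18239127, minus strand) was at 124 to 160 in CS and 109 to 154 in SD, with a log2 difference of -0.12 (95% confidence interval -0.33 to 0.09). Both REV-ERB genes had overlapping groups. The 3′ end of *Nr1d1* shares 263 exonic bases (8.55% of its exons) with *Thra*, the thyroid hormone receptor gene on the opposite strand, and the strand setting of the counting is not given in the sources used here, so reads of the 2 genes there may not have been told apart. *Cry2*, *Csnk1e* and *Csnk1d* share 295, 267 and 63 exonic bases with antisense genes that are not listed in the table. *Thra* rose by 0.61 on the log2 scale from CS to SD (adjusted p = 0.00432), and the ratio of *Nr1d1* to *Thra* CPM went from 0.228 ± 0.0548 to 0.148 ± 0.0227.

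**Figure D2:**
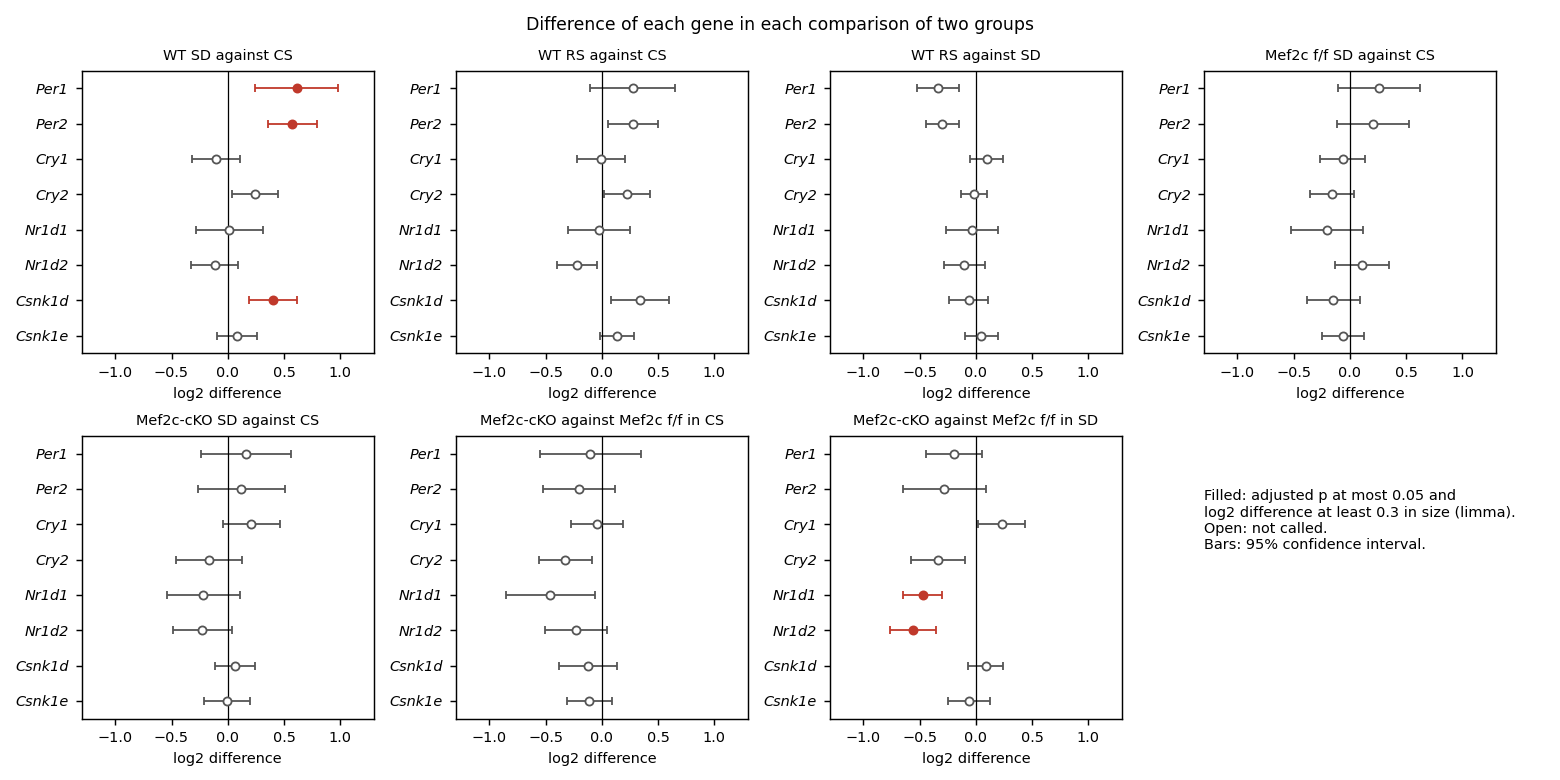
Log2 difference of each gene (horizontal axes, the first-named group minus the second) in the 7 comparisons of 2 groups, with 95% confidence intervals from limma; filled red points were called. Called points are *Per1*, *Per2* and *Csnk1d* in WT SD against CS, and *Nr1d1* and *Nr1d2* in Mef2c-cKO against *Mef2c* f/f in SD.

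The activators of the loop were called lower after WT sleep deprivation, while *Per1* and *Per2* were called higher. Of 6 listed activators 5 were tested, and all 5 fell (*Clock*, *Arntl*, *Npas2*, *Rora* and *Rorb*), with a median log2 difference of -0.51. Over all genes tested, 2643 of 12913 were called lower. The 3 activators *Arntl*, *Npas2* and *Rorb* were also called lower with GC content and length corrected. *Rorb* alone was called with CPM as deposited, and likewise with a block for replicate number. *Rorb*, a ROR activator, fell by 0.89 (adjusted p = 0.000615) and *Clock* by 0.51 (adjusted p = 0.00544). Among 7 output and accessory genes, the PAR bZIP factor *Tef* (0.43, adjusted p = 0.0387) and the repressor gene *Nfil3* (0.31, adjusted p = 0.0217) rose and none fell. *Dbp*, the best-known output gene of the loop, was at 0.34 (adjusted p = 0.0683). None of the 7 was called after the GC correction. *Tef* was not called by edgeR, without the filter on low values or without WT CS replicate 2, and *Nfil3* was not called with a pseudocount of 1. Of 11 genes of clock protein turnover and other clock kinases, *Timeless* rose and *Gsk3b* fell, the latter not called without WT CS replicate 2, and neither called after the GC correction. *Ncor1*, which encodes a corepressor of the REV-ERB receptors, fell by 0.48 on the log2 scale (adjusted p = 0.0118).

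Most of the genes listed for both routes known to induce Period genes outside the loop were called higher with SD. Over all genes tested, 3183 of 12913 were called higher, and the lists were chosen with earlier results of these data known. With a different gene list, the paper found no significant excess of glucocorticoid response genes among those raised by SD. Of 11 genes of the CREB and neural activity list, 7 rose and none fell (median log2 difference 0.62), among them *Arc* (1.18, adjusted p = 0.00137), which acts at synapses, and the kinase gene *Sik1* (0.59, adjusted p = 0.00356). The list of 11 glucocorticoid-induced genes likewise had 7 that rose and none that fell (median 0.72), among them *Fkbp5* (0.72, adjusted p = 0.000419) and *Tsc22d3* (0.48, adjusted p = 0.00242). With GC content and length corrected, 3 of the activity list (*Arc*, *Fosb* and *Junb*) and 5 of the glucocorticoid list were still called higher. Markers of other cells moved in the same comparison. The 6 meningeal fibroblast markers summed to 8.82 to 38.7 rescaled CPM in WT CS and 44.5 to 72.2 in WT SD, with 3 of 5 tested higher, and the 5 red cell genes to 28.2 to 118 and 97.9 to 285, with all 5 higher. Astrocyte (3 of 6), mural (3 of 6) and inhibitory neuron markers (2 of 6) were higher too. The part of these cells, and of either route, in the values of *Per1*, *Per2* and *Csnk1d* was not tested.

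**Figure D3:**
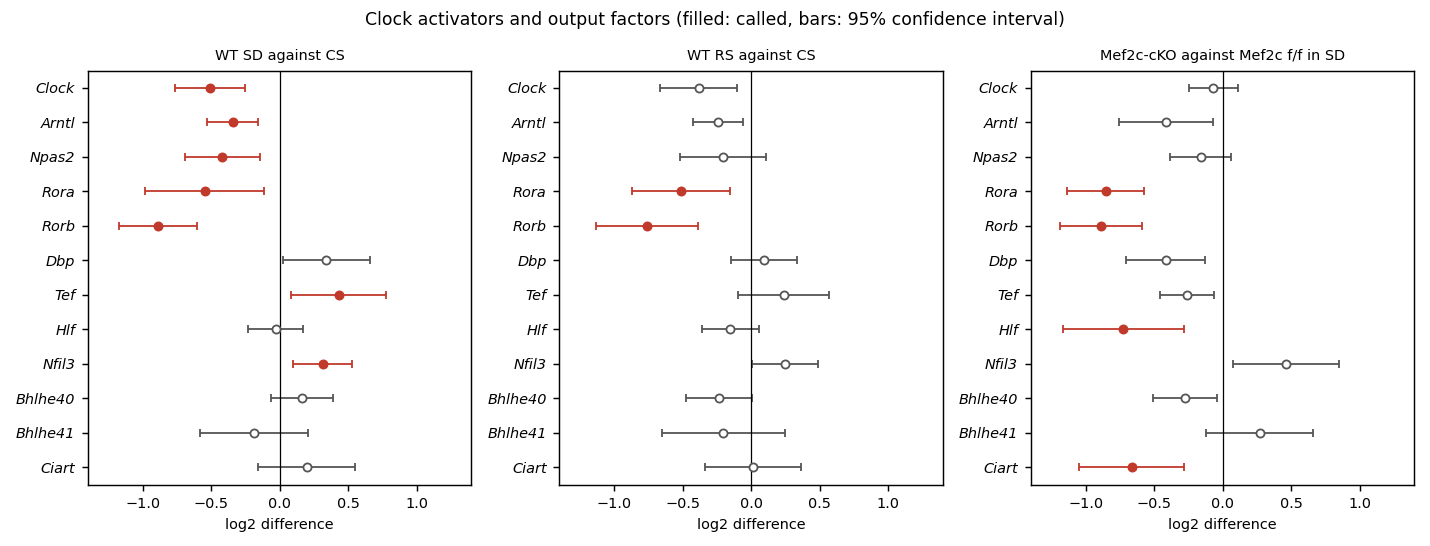
Log2 differences (horizontal axes) of the 5 activators and 7 output and accessory genes of the clock that were tested, in 3 comparisons, with 95% confidence intervals from limma; filled red points were called. All 5 activators lie below 0 in WT SD, and *Rora* and *Rorb* are called lower in all 3 panels.

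Across the 20 WT libraries, the genes with profiles most like those of the called members were found among 12155 genes by the root mean square of the log2 difference after centring. They were *Pqlc2* (0.136), *Jade2* (0.140) and *Fibp* (0.141) for *Per1*, which itself varied by 0.369. For *Per2* they were *Stk40* (0.0944), *Myo1c* (0.109) and *Synpo* (0.115), against 0.274 for *Per2* itself. *Csnk1d* was most closely followed by *Socs7* (0.0446), *Kctd20* (0.0716) and *Paip2b* (0.0729), against 0.244. The values are a description over libraries that differ in sleep group.

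After 2 hr of recovery sleep no member was called against CS, and the Period genes lay between CS and SD. The comparison uses the same 6 CS libraries as the one above. By limma 0 of 8 genes were called, where 17.5% of 12752 genes tested were; 4 had an unadjusted p of at most 0.05, edgeR called 0 and DESeq2 called 1, *Csnk1d*. *Per1* ran from 23.98 through 29.97 to 35.99 rescaled CPM in WT RS, with a log2 difference from CS of 0.27 (95% confidence interval -0.11 to 0.65, adjusted p = 0.226). *Per2* ran from 25.7 through 27.9 to 33.5 (log2 difference 0.28, adjusted p = 0.0615), and *Csnk1d* from 72.6 through 80.6 to 106 (0.34, adjusted p = 0.0541). All 3 overlapped CS. *Nr1d2* had a log2 difference of -0.22 (adjusted p = 0.0659) and *Cry2* of 0.22 (adjusted p = 0.0886). Without WT CS replicate 2 the differences of *Per1*, *Per2*, *Csnk1d* and *Cry2* were 0.09, 0.19, 0.26 and 0.13. *Rora* and *Rorb* were the 2 activators called lower in RS, and 7 of 11 glucocorticoid-induced genes and 2 of 10 tested in the activity list (*Fosb* and *Npas4*) were called higher. Without WT CS replicate 2 the activity list kept both, whereas 1 glucocorticoid-induced gene (*Plin4*) and none of the activators were called. Differences again went with GC content (Spearman rho 0.71 across 12297 genes), and 3 of 5 red cell genes were higher, whose part was not tested.

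Set directly against SD, RS had lower Period mRNA in unadjusted terms. *Per1* differed by -0.34 (95% confidence interval -0.52 to -0.15, unadjusted p = 0.00154, adjusted p = 0.312, limma) and *Per2* by -0.30 (95% confidence interval -0.45 to -0.15, unadjusted p = 0.000640, adjusted p = 0.249). They were the 2 members with an unadjusted p of at most 0.05, and 0 of 8 genes were called by limma, edgeR or DESeq2, where *Per2* passed the adjusted p in DESeq2 (0.0157) at a log2 difference of -0.29, short of 0.3. The background was 0.0232% of 12921 genes, or 3 genes. Differences here went with GC content in the other direction (Spearman rho -0.50 across 12469 genes), and with GC content and length corrected *Per1* and *Per2* were both at -0.26 (adjusted p = 0.277 and 0.118). *Csnk1d*, at -0.06 (95% confidence interval -0.24 to 0.11), and both cryptochromes and REV-ERB genes had intervals that include 0. RS mice had been awake for 4 hr rather than 6 before they slept, so the shorter deprivation and the sleep itself cannot be told apart.

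In *Mef2c* f/f mice sleep deprivation left all 8 genes below the call. *Per1* was at 27.3, 27.8, 37.2 and 43.2 rescaled CPM in the 4 CS libraries and at 34.3, 42.4 and 43.4 in the 3 SD libraries. These groups overlapped, with a log2 difference of 0.26 (95% confidence interval -0.11 to 0.62, adjusted p = 0.433). *Per2* was at 22.5, 24.7, 27.4 and 31.3 in CS and at 24.5, 32.4 and 35.1 in SD, a log2 difference of 0.20 (95% confidence interval -0.11 to 0.52, adjusted p = 0.480). *Csnk1d* was at 90.4, 96.3, 108 and 122 in CS and at 86.6, 93.6 and 99.7 in SD (log2 difference -0.15, 95% confidence interval -0.39 to 0.09). By limma 0 members were called and 0 had an unadjusted p of at most 0.05, edgeR and DESeq2 also called 0, and the background was 0.0403% of 12410 genes, or 5 genes. The interval of *Per1* includes the WT difference of 0.61, while that of *Per2* ends short of the WT difference of 0.57. Both intervals include 0 and smaller rises. By limma and by edgeR none of the listed clock, activity and glucocorticoid genes was called, with median log2 differences of 0.68 in the activity list and 0.40 in the glucocorticoid list. DESeq2 called 6 of 11 activity genes, 3 of 11 glucocorticoid-induced genes, *Rorb* and *Bhlhe40* higher and *Npas2* lower. With the GC correction limma called 3 activity genes (*Egr1*, *Egr2* and *Fosb*), 2 glucocorticoid-induced genes (*Klf9* and *Tsc22d3*) and *Bhlhe40* higher.

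The response to SD was compared between *Mef2c* f/f and WT mice by an interaction term, for which the adjusted p alone made the call. *Csnk1d* was called, with a log2 difference of responses, *Mef2c* f/f minus WT, of -0.55 (SE 0.16, 95% confidence interval -0.89 to -0.21, adjusted p = 0.0358). The other 7 genes were not called, where 15.1% of 13106 genes tested were. *Cry2* was at -0.40 (adjusted p = 0.0669), *Per2* at -0.37 (adjusted p = 0.130) and *Per1* at -0.35 (adjusted p = 0.339). Without WT CS replicate 2 *Csnk1d* was at -0.47 (adjusted p = 0.0259), *Cry2* at -0.31 and *Per1* at -0.17. Differences of response went with GC content (Spearman rho -0.76 across 12652 genes), and with GC content and length corrected the value of *Csnk1d* was -0.20 (adjusted p = 0.267), no longer called. The call was also lost when any of 7 single libraries was left out (WT CS replicate 1, WT SD replicate 8, *Mef2c* f/f CS replicates 2 and 4, and *Mef2c* f/f SD replicates 1, 2 and 3), at differences of -0.60 to -0.47. In the same interaction *Clock* and *Rorb* had a higher response in *Mef2c* f/f mice, as did *Gsk3b*. Of the 11 activity genes 3 were higher (*Crem*, *Egr1* and *Egr2*) and *Npas4* lower, and of the 11 glucocorticoid-induced genes *Klf9* was higher and *Ddit4* and *Plin4* were lower. All 5 red cell genes, 2 meningeal fibroblast markers (*Col1a2* and *Slc22a6*), *Gfap* and *Tagln* were called lower, and *Mog* and *P2ry12* higher, and their part was not tested.

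The WT and *Mef2c* libraries were set apart in more than genotype, as the listed genes of WT libraries summed to 925580 to 985958 CPM and those of the others to 1000000, so levels across them are given without a test. The ratio of *Csnk1d* to *Csnk1e* CPM within a library was at most 1.48 in the 20 WT libraries and at least 1.51 in the 13 *Mef2c* f/f and Mef2c-cKO libraries. Group means were 0.992 to 1.23 in the former and 1.67 to 1.85 in the latter. Genotype and set of libraries cannot be told apart here.

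**Figure D4:**
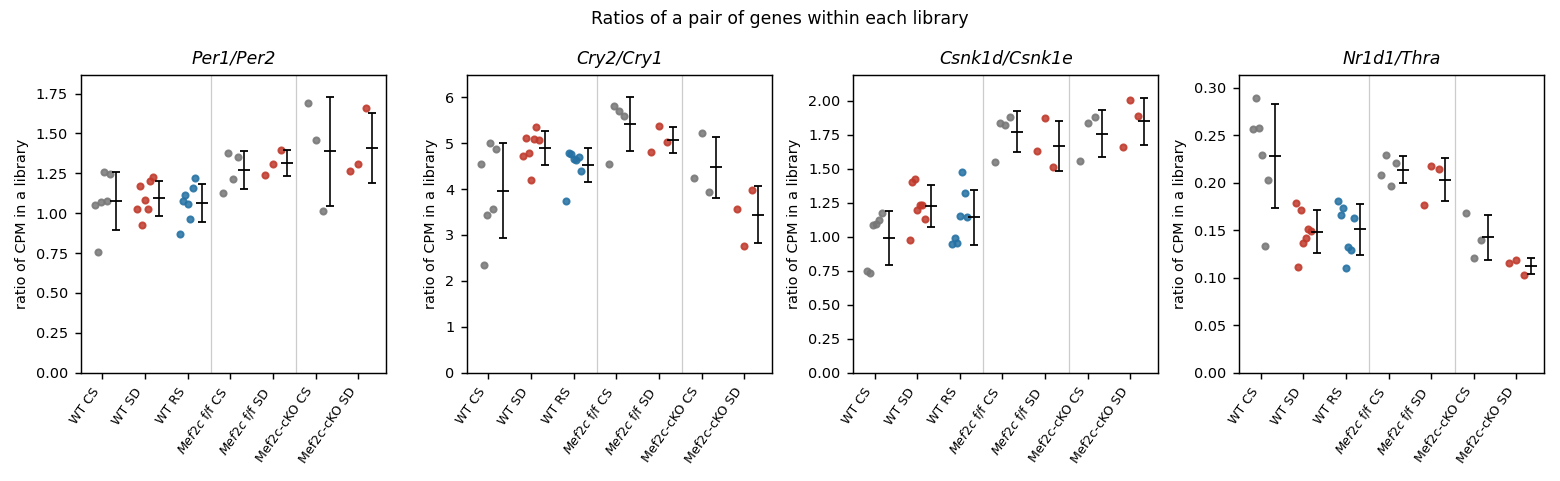
Ratio of the CPM of a pair of genes within each library (vertical axes, from 0), by group (CS grey, SD red, RS blue), with the mean ± SD beside each group. *Csnk1d*/*Csnk1e* is at most 1.48 in WT and at least 1.51 in the other libraries, and *Cry2*/*Cry1* is lowest on average in Mef2c-cKO SD (3.44).

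In Mef2c-cKO mice no member was called between SD and CS either. *Per1* was at 26.2, 28.0 and 40.5 rescaled CPM in CS and 32.1, 34.0 and 38.6 in SD, a log2 difference of 0.16 (95% confidence interval -0.24 to 0.56). *Per2* was at 19.2, 23.9 and 25.9 in CS and 20.5, 25.4 and 29.5 in SD (0.12, 95% confidence interval -0.27 to 0.51). Both overlapped between the sleep groups. *Cry1* had a log2 difference of 0.21 and *Nr1d1* and *Nr1d2* of -0.22 and -0.23, all with an adjusted p of 0.998. By limma 0 of 8 were called and 0 had an unadjusted p of at most 0.05, edgeR and DESeq2 called 0, and the background was 0.0234% of 12810 genes, or 3 genes. Without Mef2c-cKO CS replicate 8 limma also called 0, with *Nr1d1* at -0.36, *Cry2* at -0.26, *Per1* at 0.05 and *Per2* at 0.21.

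No member passed the test for a different response to SD in Mef2c-cKO mice. In the interaction between genotype and sleep state 0 of 8 genes were called (0 also by edgeR and by DESeq2, and 0 with an unadjusted p of at most 0.05), with a background of 0.00778% of 12860 genes, or 1 gene. The difference of responses, Mef2c-cKO minus *Mef2c* f/f, was -0.09 for *Per1* (95% confidence interval -0.65 to 0.46) and -0.08 for *Per2* (-0.58 to 0.42). The values furthest from 0 were -0.33 for *Nr1d2* (95% confidence interval -0.68 to 0.02) and 0.27 for *Cry1* (-0.01 to 0.56). Without Mef2c-cKO CS replicate 8 these values were -0.21 for *Per1*, 0.01 for *Per2*, -0.37 for *Nr1d2* and 0.26 for *Cry1*, with none called by limma. The intervals of both Period genes are wide enough to include the loss of a response as large as that in WT.

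Between genotypes after SD, both REV-ERB genes were lower in Mef2c-cKO than in *Mef2c* f/f mice. They were the 2 of 8 members called, where 15.1% of 12774 genes tested were. The median log2 difference of the 8 was -0.24, against 0.01 over all genes. With 3 libraries a group, the groups did not overlap for 40.3% of the genes tested. *Nr1d1*, the REV-ERBα gene, was at 34.7, 36.7 and 36.8 rescaled CPM in Mef2c-cKO SD and at 46.1, 51.6 and 53.3 in *Mef2c* f/f SD. All 3 knockout libraries lay below all 3 controls, with a log2 difference of -0.47 (SE 0.08, 95% confidence interval -0.64 to -0.30, adjusted p = 0.00575), a fold of 0.721. *Nr1d2*, the REV-ERBβ gene, was at 103, 113 and 131 in Mef2c-cKO SD and at 164, 174 and 174 in *Mef2c* f/f SD, with no overlap. Its log2 difference was -0.56 (SE 0.09, 95% confidence interval -0.77 to -0.36, adjusted p = 0.00575), a fold of 0.677. With the 7 groups in a single fit *Nr1d2* was still called (adjusted p = 0.00724) and *Nr1d1* was not (adjusted p = 0.147).

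With GC content and length corrected, *Nr1d1* was at -0.60 (adjusted p = 0.00220) and *Nr1d2* at -0.54 (adjusted p = 0.00310), both called. *Thra*, which overlaps *Nr1d1* on the opposite strand, was higher in Mef2c-cKO SD by 0.37 (adjusted p = 0.0210), so the 2 neighbours differed in opposite directions. The ratio of *Nr1d1* to *Thra* CPM was 0.112 ± 0.00839 in Mef2c-cKO SD and 0.203 ± 0.0228 in *Mef2c* f/f SD. The *Nr1d1* and *Nr1d2* promoters printed above have in common none of the 5 motifs.

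The cryptochromes differed in opposite directions after SD without reaching the call. *Cry2* was at 56.9, 70.8 and 72.1 rescaled CPM in Mef2c-cKO SD and at 76.7, 86.1 and 88.9 in *Mef2c* f/f SD (log2 difference -0.34, 95% confidence interval -0.57 to -0.10, adjusted p = 0.0569). *Cry1* was at 18.1, 19.9 and 20.6 in Mef2c-cKO SD and at 15.2, 16.5 and 17.9 in *Mef2c* f/f SD (log2 difference 0.23, 95% confidence interval 0.02 to 0.44, adjusted p = 0.116). Neither pair of groups overlapped, as was the case for 40.3% of all genes tested. *Cry2* was called in DESeq2 (-0.35, adjusted p = 0.0154) and with GC content and length corrected (-0.42, adjusted p = 0.0185). The ratio of *Cry2* to *Cry1* CPM was 2.77 to 3.99 in Mef2c-cKO SD and 4.80 to 5.38 in *Mef2c* f/f SD. *Per1* (-0.19), *Per2* (-0.28), *Csnk1d* (0.09) and *Csnk1e* (-0.06) had intervals that include 0.

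Among the other clock genes in the same comparison, 2 of 5 activators tested were lower in Mef2c-cKO, *Rora* (-0.85, adjusted p = 0.00389) and *Rorb* (-0.89, adjusted p = 0.00438), and none was higher. Of the 7 output and accessory genes, *Hlf*, a PAR bZIP factor, was at -0.72 (adjusted p = 0.0358) and the repressor gene *Ciart* at -0.66 (adjusted p = 0.0305). Of 11 turnover genes *Usp2*, which encodes a deubiquitinase, was at -0.35 (adjusted p = 0.0110). After the GC correction 5 of the 7 output genes were called lower, *Dbp* (-0.63) among them. None of the 11 activity genes was called, and of the 11 glucocorticoid-induced genes *Tsc22d3* and *Zbtb16* were lower. Microglia markers were higher for 4 of 6 genes (sums 186 to 204 rescaled CPM in Mef2c-cKO SD and 149 to 155 in *Mef2c* f/f SD). Inhibitory neuron markers were higher for 3 of 6 and lower for *Pvalb*, and the excitatory neuron marker *Nrgn* was lower. The part of these cell types in the REV-ERB values was not tested.

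Under control sleep all 8 members had lower means in Mef2c-cKO than in *Mef2c* f/f mice, but none was called. By limma 0 genes were called, 2 had an unadjusted p of at most 0.05, edgeR called 0 and DESeq2 called 1, *Cry2*, with a background of 7.67% of 12681 genes. The median log2 difference of the 8 was -0.16, against 0.03 over all genes. Groups did not overlap for 26.9% of the genes tested. *Cry2* was at 65.3, 79.5 and 79.5 rescaled CPM in Mef2c-cKO CS and at 83.3, 94.5, 96.1 and 101 in *Mef2c* f/f CS, with no overlap (log2 difference -0.32, 95% confidence interval -0.56 to -0.09, adjusted p = 0.0841). *Nr1d1* was at 34.6, 42.2 and 51.0 in Mef2c-cKO CS and at 47.5, 50.8, 63.8 and 73.2 in *Mef2c* f/f CS, with overlap (log2 difference -0.46, 95% confidence interval -0.85 to -0.06, adjusted p = 0.130). *Nr1d2* was at 127, 129 and 149 in Mef2c-cKO CS and at 132, 151, 172 and 181 in *Mef2c* f/f CS (log2 difference -0.23, adjusted p = 0.249). Without Mef2c-cKO CS replicate 8 the differences were -0.23 for *Cry2*, -0.32 for *Nr1d1* and -0.20 for *Nr1d2*, and that of *Per1* went from -0.10 to 0.02. Of 5 activators tested, *Rora* (-1.08), *Arntl* (-0.52) and *Npas2* (-0.51) were lower and none was higher, and in the output list *Ciart* was lower (-0.77). Without replicate 8 *Rora* and *Npas2* were still called and *Ciart* and *Arntl* were not. Markers of microglia had a median log2 difference of 0.72 with 0 of 6 called, and *Aqp4* (astrocytes), *Gad2* (inhibitory neurons), *Cnp* and *Mog* (oligodendrocytes) and *Col1a1* and *Col1a2* (meningeal fibroblasts) were called higher. *Flt1* (endothelium) and 2 of 5 red cell genes were called lower, and the part of these cells was not tested.

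**Figure D5:**
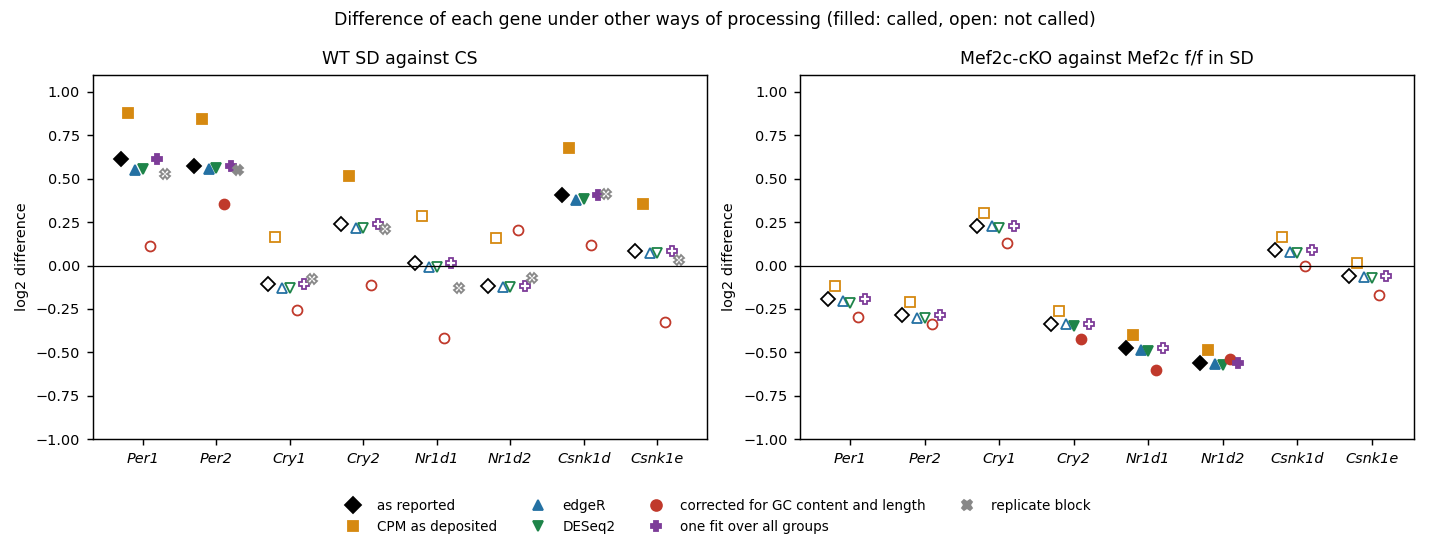
Log2 difference (vertical axis) of each gene in 2 comparisons under 7 ways of processing (6 in the comparison of genotypes, where no block was fitted); filled symbols were called. In WT SD against CS *Per2* is filled under all 7, and *Nr1d2* is filled under all 6 in Mef2c-cKO against *Mef2c* f/f after SD.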

How the data were processed

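Frontal cortex polyA RNA of each mouse had been sequenced as stranded paired-end libraries, and per the labels and methods the authors used Trimmomatic for trimming, STAR for alignment to mm10 and HTSeq for unique reads per gene, and deposited CPM from edgeR. The strand setting and annotation release are not given in the sources used here. All 711645 CPM values were whole multiples of 1 read within 0.01, so reads were recovered and divided by median-of-ratios factors over 11570 genes (rescaled CPM). Differences were tested with limma 3.58.1 (R 4.3.3) on log2(rescaled CPM + 0.5), in the compared groups only, for genes that reached a CPM of 1 in all libraries of 1 compared group, and adjusted over all genes by the Benjamini-Hochberg method. A fold is thus on the log2(value + 0.5) scale. Calls needed an adjusted p of at most 0.05 and a log2 difference of at least 0.3 in size (interactions, the adjusted p alone). edgeR 4.0.16 and DESeq2 1.42.0 on recovered reads were alternatives. The GC alternative removed a smooth trend of log2 values on transcript GC content and length from each library. P-values measure the spread between single mice, and depth (18935045 to 249046089 reads) sets counting error only. The limma fit was run on counts simulated for some of the comparisons, with a single dispersion and no GC trend. That simulation does not cover the GC trends described above.

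The members and lists were chosen with earlier results of these data known. Other genes are named by a rule: called genes of the lists, at most 6 a list, and the 3 genes most like each member called in WT SD. *Dbp* was named after its value was seen, and *Thra* because it overlaps *Nr1d1*. Some genes of the lists are not reported here. Gene positions are from GENCODE M21 (GRCm38), promoters from RefSeq. Replicate numbers were not used to pair samples.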

Additional observations from a re-analysis of the deposited data

Results flagged for a closer look

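The response of *Csnk1d* to SD differed between *Mef2c* f/f and WT mice by -0.55 on the log2 scale (adjusted p = 0.0358 by limma), and it was the one result set aside for a difference between groups under the same contrast. *Csnk1d* was higher in 7 of 7 WT SD libraries than in any WT CS library, while the *Mef2c* f/f groups overlapped. Of all genes tested, 15.1% had WT CS and SD groups that did not overlap. No library stood far from the rest of its group in the 32 sets of 4 to 7 libraries examined, each holding a member and a group.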

How the results depend on the processing

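Over all alternatives, 1428 of 1496 member values counted as the same. These were called in both fits, whatever the change in size, or called in neither and within the residual spread. Of the others, 14 lost a call, 22 gained one, 32 moved by more than the spread without a call, and 0 reversed a called direction. Of 88 counts of called members under the 10 settings other than single libraries, 15 differed from those reported, 13 of them by more than 1.5 times. With CPM as deposited the count was 5 in WT SD against CS, 3 in WT RS against CS (*Per2*, *Csnk1d* and *Csnk1e*) and 4 in the SD response of *Mef2c* f/f minus WT. With GC content and length corrected these were 1 for WT SD against CS and 0 for the SD response of *Mef2c* f/f minus WT. DESeq2 gave 1 in WT RS against CS (*Csnk1d*) and 1 in Mef2c-cKO against *Mef2c* f/f in CS (*Cry2*). In Mef2c-cKO against *Mef2c* f/f in SD, DESeq2 and the GC correction each gave 3, with *Cry2* added. A single fit over all groups gave 1 in WT RS against CS (*Csnk1d*), 1 in Mef2c-cKO against *Mef2c* f/f in SD (*Nr1d2*) and 2 in *Mef2c* f/f minus WT (*Csnk1d* and *Cry2*). With each library left out in turn, WT RS against CS gave 0 to 2 (2, *Per2* and *Csnk1d*, without WT CS replicate 6; 1, *Csnk1d*, without WT RS replicate 1 or 2) and *Mef2c* f/f minus WT gave 0 to 2 (*Cry2* was gained without WT CS replicate 4 or 6 or *Mef2c* f/f CS replicate 1), while the counts of WT SD against CS and of Mef2c-cKO against *Mef2c* f/f in SD stayed at 3 and 2. The causes were not tested.

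Deviations of same-numbered samples correlated at r from -0.30 to 0.65 in the 5 pairs of WT CS and SD, from 0.05 to 0.66 in the 6 pairs of WT CS and RS, from -0.73 to 0.35 in the 5 of WT SD and RS, from 0.05 to 0.29 in the 3 of *Mef2c* f/f and from 0.07 to 0.16 in the 2 of Mef2c-cKO. In none of them was every r above 0.1, so the replicate numbers were not taken as pairs. With a replicate block the count was 1 in WT SD against CS (*Per2*), 1 in WT RS against CS (*Csnk1d*) and 0 in *Mef2c* f/f minus WT, and the block changed no other count of called members.

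Over all genes, the count called from WT CS to SD went from 5826 to 2551 with the GC correction and 287 with the block. From WT CS to RS it went from 2232 to 385 with no filter, 636 with the GC correction, 3420 by DESeq2, 4813 in the single fit and 4279 with the block. It went from 973 to 2095 by DESeq2, 1486 with the GC correction and 1657 in the single fit for the genotypes in CS, and from 1927 to 698 in the single fit for those in SD. For *Mef2c* f/f minus WT it went from 1983 to 3426 as deposited, 1142 with no filter, 281 with the GC correction, 2983 in the single fit and 0 with the block. Counts of 1 to 5 genes elsewhere reached 54 (WT RS against SD), 466 (*Mef2c* f/f SD against CS), 25 (Mef2c-cKO SD against CS) and 59 (the genotype interaction) by DESeq2, and under the other settings they lay between 0 and 7, 0 and 122, 1 and 15, and 1 and 8, respectively. With each library left out in turn, counts over all genes ran from 4509 to 6411 in WT SD against CS, from 0 (without WT CS replicate 3) to 3740 (WT RS replicate 1) in WT RS against CS, and from 0 to 9 in WT RS against SD. They ran from 0 to 590 (without *Mef2c* f/f CS replicate 1) in *Mef2c* f/f SD against CS and from 1 to 3 in Mef2c-cKO SD against CS. For the genotypes they ran from 171 (without Mef2c-cKO CS replicate 7) to 875 in CS and from 822 (without *Mef2c* f/f SD replicate 1) to 2447 in SD. For the SD response they ran from 1 to 2 in Mef2c-cKO minus *Mef2c* f/f and from 23 (without *Mef2c* f/f SD replicate 3) to 3300 (WT CS replicate 6) in *Mef2c* f/f minus WT. With 3 libraries a group, the log2 difference of *Cry2* of -0.34 after SD missed the call (adjusted p = 0.0569 by limma).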
